A study of Mus musculus with 2 samples.

Results

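Piezo1, Piezo2, Asic1, Asic2, Asic3, Hcn2, Hcn3 and Hcn4 encode ion channels that open to membrane stretch (the Piezo genes), to extracellular acid (the ASIC genes) or to hyperpolarization (the HCN genes). These 8 genes were found by symbol among the 19059 genes of each deposited count matrix, and their raw UMIs (unique molecular identifiers, 1 per molecule counted) were described across neuron subtypes and vascular, glial and other classes of mouse dorsal root ganglion, the ganglion that holds the cell bodies of the sensory neurons of the body. The study profiled ganglia of the neck region in 2 pooled libraries. The Penk KO library came from Foxp3 CreER; Penk fl/fl mice and the Penk ctrl library from littermate Foxp3 CreER; Penk fl/WT mice, so both groups carried the tamoxifen-inducible Cre at Foxp3, the transcription factor gene of regulatory T cells, and the controls also carried 1 floxed allele of Penk, the preproenkephalin gene. Both groups received tamoxifen and 3 days of imiquimod, a skin irritant that induces psoriasis-like inflammation, and the tissue was fixed in 4% paraformaldehyde before dissociation. The question the design poses is how ganglion cells differ when Penk is deleted through a regulatory T cell driver. The sources used here do not say how many mice went into a pool, nor their sex or age.

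Piezo2 is the main transducer of light touch and of muscle and joint position in sensory neurons, whereas Piezo1 is best known as a sensor of shear stress and stretch in blood vessels and other non-neuronal cells. ASIC subunits assemble as trimers into proton-gated sodium channels, and Asic3 is known as the subunit of muscle and joint afferents that responds to mild acidification. HCN subunits assemble as tetramers into channels that carry the pacemaker current and are modulated by cyclic AMP. Hcn2 is known for setting the firing rate of nociceptors in inflammatory pain, and Hcn4 is the main pacemaker subunit of the sinoatrial node.

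The Penk KO library held 12067 barcodes and 156441497 UMIs, against 15710 barcodes and 259136217 UMIs in the Penk ctrl library, with a median of 2243 and 2481 UMIs per barcode. Levels are given as CPM, the UMIs of a gene per 1000000 UMIs of a class and library. Penk itself had 4 UMIs (0.0256 CPM) in the Penk KO library and 582 UMIs (2.25 CPM) in the Penk ctrl library. The position of its probes relative to the floxed part is not stated, so a low count cannot be read as the efficiency of the deletion. Neurons made up 43.0% of kept cells in the Penk KO library and 42.2% in the Penk ctrl library, at a median of 7589 and 10751 UMIs per neuron. Clusters were called "-like" after the markers they carried, and the 17 classes that held 100 or more cells of both libraries were compared, 10 of them neuron subtypes. In total 4723 droplet barcodes occurred in both libraries. All 95% intervals cover counting error only. There was 1 library per group, so no difference between the genotypes has a replicate check or a test, and levels were not compared between genes because the probes differ.

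The 8 genes differed widely in depth and lay at 8 separate places in the genome (build GRCm39). Piezo1 (ENSMUSG00000014444; chromosome 8, 123208437 to 123278072, minus strand) had 789 UMIs in the Penk KO library and 1031 in the Penk ctrl library. Piezo2 (ENSMUSG00000041482; chromosome 18, 63143284 to 63520260, minus strand) had 36248 and 61861 UMIs in the Penk KO and Penk ctrl libraries. Piezo1 is therefore the least precisely measured of the genes here, and most of its statements rest on fewer than 300 UMIs per class.

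The ASIC genes lie on chromosome 15 (Asic1, ENSMUSG00000023017, 99568099 to 99599016, plus strand), chromosome 11 (Asic2, ENSMUSG00000020704, 80770995 to 81859283, minus strand) and chromosome 5 (Asic3, ENSMUSG00000038276, 24618381 to 24622833, plus strand). The HCN genes lie on chromosome 10 (Hcn2, ENSMUSG00000020331, 79552120 to 79571948, plus strand), chromosome 3 (Hcn3, ENSMUSG00000028051, 89053381 to 89067544, minus strand) and chromosome 9 (Hcn4, ENSMUSG00000032338, 58730132 to 58770458, plus strand). Among these 6 genes, Hcn2 had the most UMIs, 54244 in the Penk KO library and 103913 in the Penk ctrl library. Hcn4 had the fewest, 4546 in the Penk KO library and 7864 in the Penk ctrl library.

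Of the 8 genes, 7 had their highest level in a neuron subtype and 1, Piezo1, in a non-neuronal class. Piezo2 was highest in C-LTMR-like neurons (unmyelinated low-threshold mechanoreceptors, touch afferents of hairy skin), Asic1 and Hcn2 in proprioceptor-like neurons, Asic3 in peptidergic A-like neurons and Hcn4 in Trpm8 cold-like neurons. These 5 highest classes and that of Piezo1 were the same under all 13 settings of the processing, the one reported included. For Asic2, A-delta LTMR-like neurons were highest in 8 of the 13 settings, Mrgprd nonpeptidergic-like neurons in 4 and C-LTMR-like neurons in 1. For Hcn3, C-LTMR-like neurons were highest in 7 settings, A-delta LTMR-like neurons in 5 and Trpm8 cold-like neurons in 1.

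**Figure D1:**
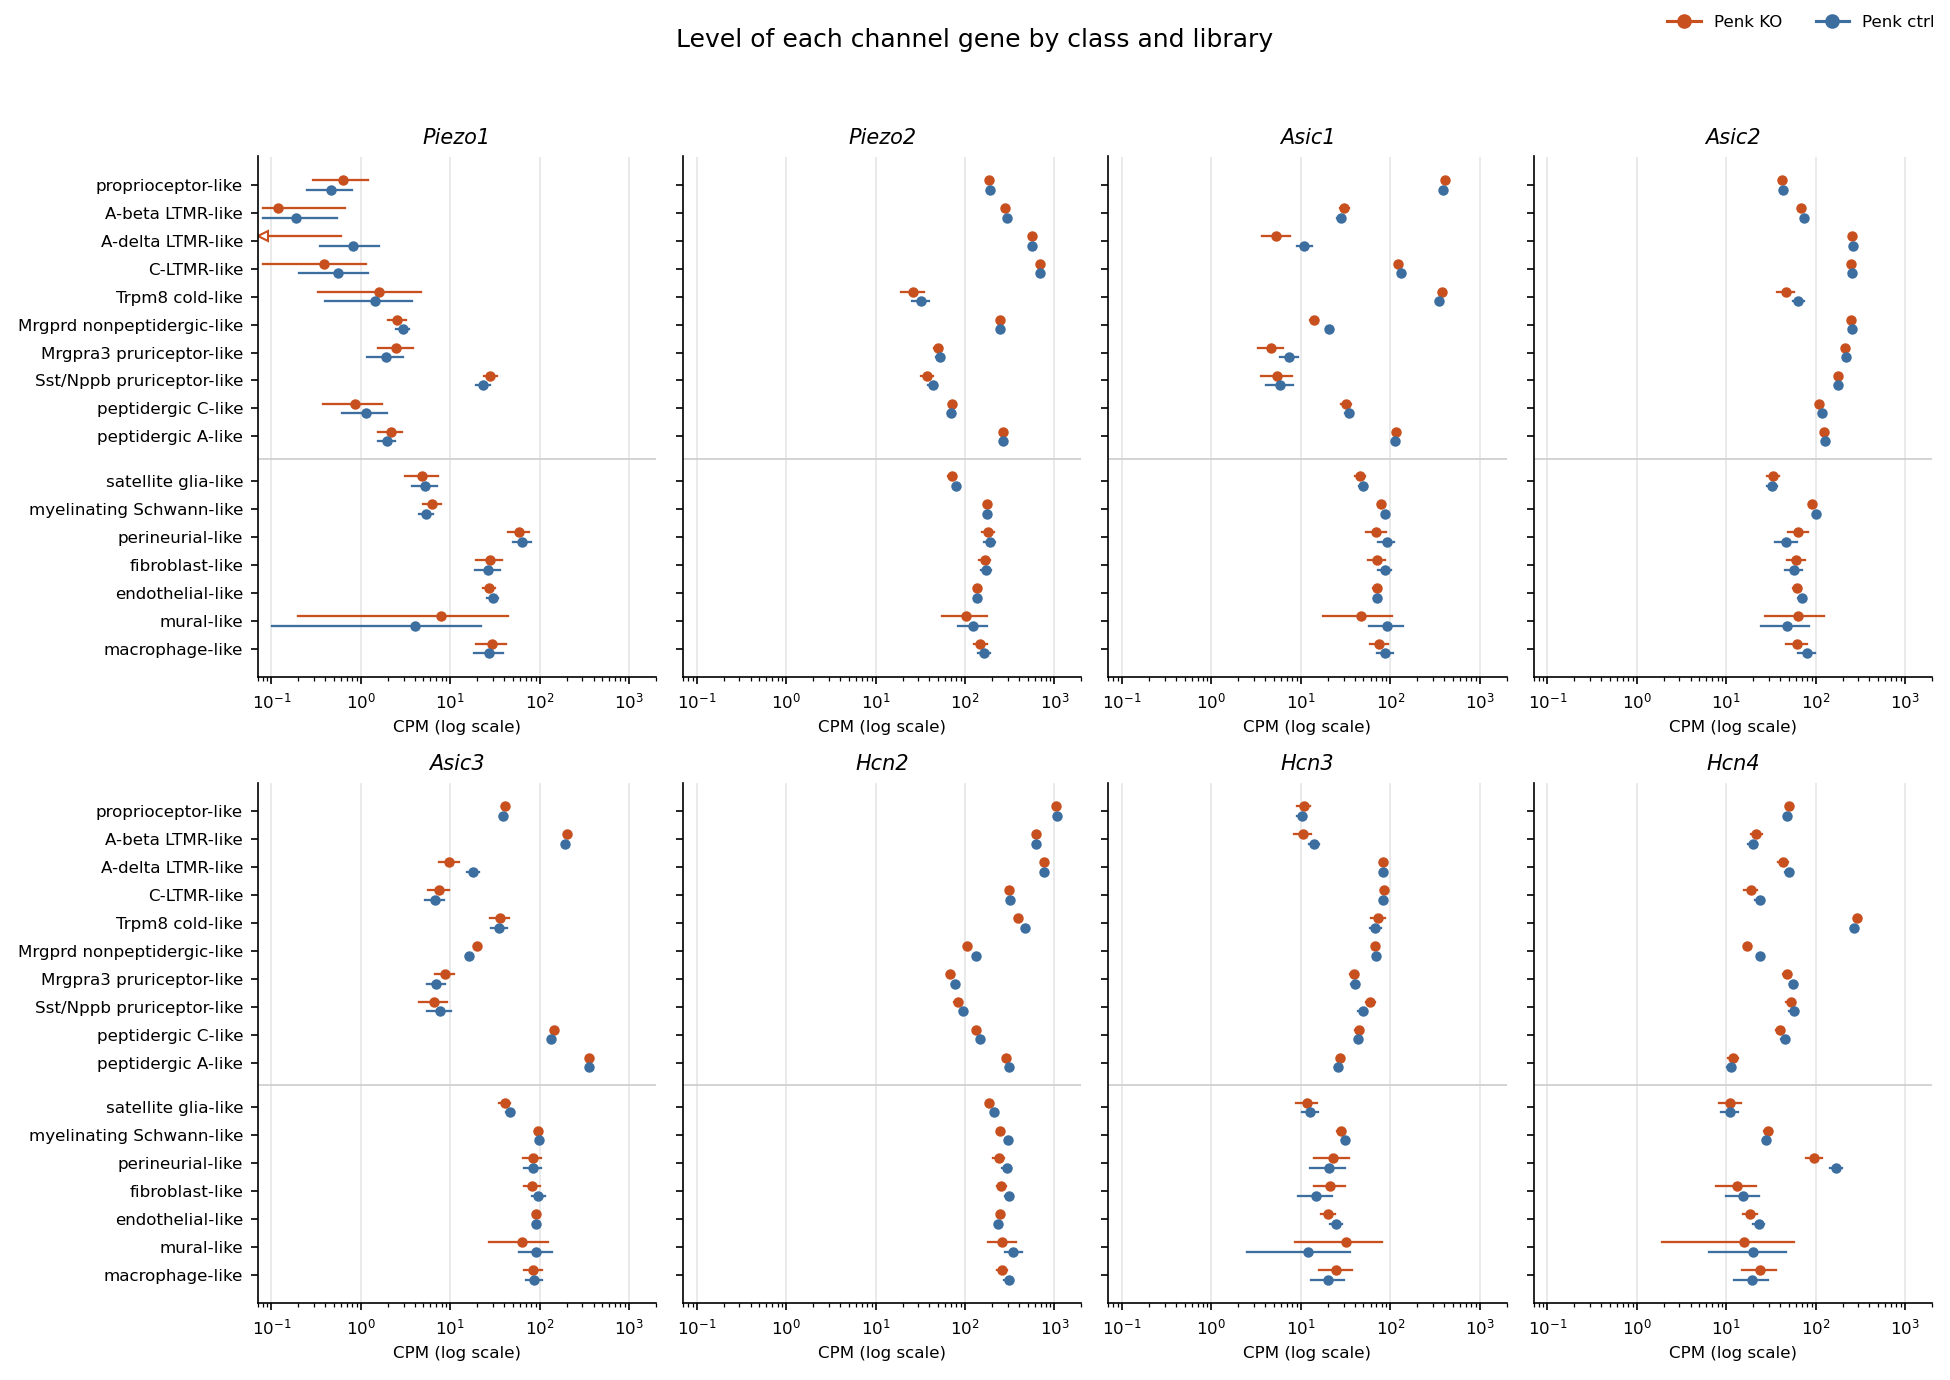
Level of each of the 8 genes (CPM, log scale) in the 10 neuron subtypes and 7 non-neuronal classes, with 1 point per library (Penk KO above Penk ctrl in each class) and lines for the 95% counting interval. Piezo1 was highest in perineurial-like cells. Endothelial-like, macrophage-like and fibroblast-like cells and Sst/Nppb pruriceptor-like neurons followed with overlapping ranges. An open triangle marks the A-delta LTMR-like class of the Penk KO library, where Piezo1 had 0 UMIs.

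Piezo1 had its highest levels outside the neurons, although neurons, which gave most UMIs of each library, held 44.5% of its UMIs in the Penk KO library and 46.2% in the Penk ctrl library. It was highest in perineurial-like cells, which form the sheath around the ganglion and its nerves, with 58.5 CPM (54 UMIs) in the Penk KO library and 63.9 CPM (69 UMIs) in the Penk ctrl library. Endothelial-like cells followed with 27.1 CPM (165 UMIs) in the Penk KO library and 29.8 CPM (220 UMIs) in the Penk ctrl library. The ranges of the libraries did not overlap between these classes. Macrophage-like cells had 29.1 and 27.4 CPM and fibroblast-like cells 27.5 and 26.3 CPM in the Penk KO and Penk ctrl libraries, and neither could be ordered against the endothelial-like cells beyond the spread of the libraries.

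The exception among neurons was the Sst/Nppb pruriceptor-like class, the itch neurons that carry the natriuretic peptide Nppb and the interleukin-31 receptor Il31ra. Piezo1 had 28.1 CPM (134 UMIs) there in the Penk KO library and 23.4 CPM (135 UMIs) in the Penk ctrl library, a range that overlapped those of fibroblast-like and macrophage-like cells. In the other 9 subtypes it reached at most 2.93 CPM in either library. Sst/Nppb pruriceptor-like neurons held 17.0% of all Piezo1 UMIs of the Penk KO library and 13.1% of those of the Penk ctrl library, from 3.05% and 2.23% of all UMIs. In A-delta LTMR-like neurons Piezo1 had 0 UMIs in the Penk KO library, where the upper counting limit was 0.596 CPM, and 8 UMIs (0.810 CPM) in the Penk ctrl library.

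By cell, at least 1 Piezo1 UMI was found in 21.5% of endothelial-like cells of the Penk KO library and 23.4% of those of the Penk ctrl library. The share in satellite glia-like cells, the glia that wrap neuron cell bodies, was 1.61% in the Penk KO library and 1.79% in the Penk ctrl library. Satellite glia-like cells were shallower, with a median of 1052 and 1060 UMIs against 4000 and 4078 UMIs in endothelial-like cells of the Penk KO and Penk ctrl libraries. With each cell thinned to 500 UMIs, the shares were 2.27% and 2.61% in endothelial-like cells and 0.153% and 0.173% in satellite glia-like cells of the Penk KO and Penk ctrl libraries, so the order of the classes was the same at equal depth. Among neurons thinned to 3000 UMIs, 5.78% of Sst/Nppb pruriceptor-like neurons of the Penk KO library and 6.47% of those of the Penk ctrl library had a Piezo1 UMI, against 0.38% and 0.57% of C-LTMR-like neurons.

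Piezo2 was highest in the touch afferents. C-LTMR-like neurons had 687 CPM in the Penk KO library and 686 CPM in the Penk ctrl library, and A-delta LTMR-like neurons, the down-hair afferents that carry Ntrk2 and Colq, had 563 and 560 CPM. A-beta LTMR-like neurons, the fast touch afferents, had 276 CPM in the Penk KO library and 295 CPM in the Penk ctrl library. Each of these 3 touch classes stood apart from the next in both libraries.

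Below them came peptidergic A-like neurons (266 CPM in Penk KO, 263 CPM in Penk ctrl), Mrgprd nonpeptidergic-like neurons (247 and 248 CPM) and proprioceptor-like neurons (184 and 191 CPM). Peptidergic C-like neurons, which carry substance P, had 71.9 CPM in the Penk KO library and 69.3 CPM in the Penk ctrl library. The lowest levels were in both pruriceptor-like classes and in the cold class. Of these, the Mrgpra3 pruriceptor-like class took in a cluster led by Mrgprb4, and its clusters differed in Piezo2 as given below. Mrgpra3 pruriceptor-like neurons had 49.8 and 52.2 CPM, Sst/Nppb pruriceptor-like neurons 37.5 and 43.3 CPM and Trpm8 cold-like neurons 26.2 and 32.1 CPM, each with the Penk KO library first. Piezo1 and Piezo2 thus had opposite positions for the Sst/Nppb pruriceptor-like class, which was the highest neuron subtype for Piezo1 and the second lowest for Piezo2.

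Asic1 had a pair of leading classes. Proprioceptor-like neurons, the muscle spindle and tendon afferents that carry Pvalb and Runx3, had 406 CPM in the Penk KO library and 383 CPM in the Penk ctrl library. Trpm8 cold-like neurons had 377 CPM in the Penk KO library and 346 CPM in the Penk ctrl library. C-LTMR-like neurons (123 and 132 CPM) and peptidergic A-like neurons (117 and 113 CPM) formed a middle group, and the remaining 6 subtypes lay at or below 34.3 CPM in either library. Proprioceptor-like neurons held 37.7% of all Asic1 UMIs of the Penk KO library and 38.4% of those of the Penk ctrl library.

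Asic2 had a different order. A-delta LTMR-like neurons had 256 CPM in the Penk KO library and 260 CPM in the Penk ctrl library, Mrgprd nonpeptidergic-like neurons 251 and 257 CPM and C-LTMR-like neurons 251 and 252 CPM. The ranges of these 3 classes overlapped, so they could not be ordered. Both pruriceptor classes followed, the Mrgpra3 pruriceptor-like class with 211 CPM in Penk KO and 219 CPM in Penk ctrl and the Sst/Nppb pruriceptor-like class with 179 and 176 CPM. Proprioceptor-like neurons, highest for Asic1, were lowest among the neuron subtypes for Asic2, with 42.3 CPM in the Penk KO library and 43.3 CPM in the Penk ctrl library. Over the 17 classes the levels of Asic1 and Asic2 had a Pearson correlation of −0.615 (log2 of CPM + 1), a description of classes that share libraries and depth. In the non-neuronal classes among them, the levels of both genes lay within the spread of neuron subtype markers, as given below.

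Asic3 was concentrated in peptidergic A-like neurons, myelinated afferents that carry the peptide gene Calca. They had 358 CPM in the Penk KO library and 352 CPM in the Penk ctrl library and held 41.4% and 46.9% of its UMIs. A-beta LTMR-like neurons followed with 201 CPM in Penk KO and 192 CPM in Penk ctrl, and peptidergic C-like neurons with 145 and 133 CPM. Some subtypes high in Asic2 were low in Asic3. C-LTMR-like neurons had 7.45 CPM in the Penk KO library and 6.69 CPM in the Penk ctrl library, and Mrgpra3 pruriceptor-like neurons 8.65 and 6.94 CPM.

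Hcn2 was highest in the proprioceptor-like class and both A-fibre touch classes. Proprioceptor-like neurons had 1031 CPM in the Penk KO library and 1073 CPM in the Penk ctrl library, A-delta LTMR-like neurons 760 and 761 CPM and A-beta LTMR-like neurons 616 and 621 CPM. Trpm8 cold-like neurons came next with 388 CPM in the Penk KO library and 471 CPM in the Penk ctrl library. Peptidergic A-like neurons had 284 and 307 CPM, below C-LTMR-like neurons with 312 and 320 CPM. The lowest subtype was the Mrgpra3 pruriceptor-like class with 68.6 CPM in Penk KO and 77.1 CPM in Penk ctrl.

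Hcn3 was even across several classes. C-LTMR-like neurons had 85.0 CPM in the Penk KO library and 82.3 CPM in the Penk ctrl library and A-delta LTMR-like neurons 83.2 CPM in both. Trpm8 cold-like neurons (73.1 and 67.8 CPM) and Mrgprd nonpeptidergic-like neurons (67.0 and 69.0 CPM) were close behind. Proprioceptor-like neurons, highest for Hcn2, had 10.7 CPM in the Penk KO library and 10.2 CPM in the Penk ctrl library.

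Hcn4 marked the cold class. Trpm8 cold-like neurons, which carry the menthol and cold receptor gene Trpm8, had 293 CPM in the Penk KO library and 268 CPM in the Penk ctrl library. They held 12.1% of Hcn4 UMIs in the Penk KO library and 9.44% in the Penk ctrl library, from 1.20% and 1.07% of all UMIs. No other neuron subtype passed 56.8 CPM in either library. The next neuron subtypes were the Sst/Nppb pruriceptor-like class (52.4 CPM in Penk KO, 56.8 CPM in Penk ctrl), the Mrgpra3 pruriceptor-like class (47.9 and 56.4 CPM) and proprioceptor-like neurons (50.6 and 47.4 CPM), whose ranges overlapped. Hcn4 was also high in 1 non-neuronal class, the perineurial-like cells, as given below for those classes.

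Within subtypes, clusters that the 8 genes had no part in forming differed in several of them. Among peptidergic A-like neurons, Asic1 had 199 CPM in Penk KO and 171 CPM in Penk ctrl in the cluster led by the serotonin receptor gene Htr3a, against 8.08 and 16.6 CPM in the cluster with the receptor gene Kit among its leading genes. Both of those clusters were high in Asic3, with 419 and 415 CPM in the Htr3a-led cluster and 318 and 321 CPM in the Kit cluster of the Penk KO and Penk ctrl libraries. The clusters thus stood further apart in Asic1 than in Asic3.

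Among A-beta LTMR-like neurons, Asic3 had 226 CPM in Penk KO and 217 CPM in Penk ctrl in the larger cluster, led by Lgi2, and 21.7 and 23.3 CPM in the smaller one, led by Calb1. Proprioceptor-like clusters differed in Asic3 as well, with 4.06 CPM in Penk KO and 3.85 CPM in Penk ctrl in the cluster led by Pvalb and Spp1, against 55.4 and 41.7 CPM in the cluster led by Pvalb, Clec2l and Slc17a7. The third cluster, with the glial genes Apoe and Fabp7 among its leading genes, had 75.3 CPM of Asic3 in Penk KO and 79.2 CPM in Penk ctrl. Hcn4 was highest in the Spp1 cluster, with 73.9 and 66.1 CPM, against 38.1 and 35.6 CPM in the Slc17a7 cluster and 36.2 and 39.3 CPM in the third. An unnamed neuron cluster of 91 cells in Penk KO and 100 in Penk ctrl, led by Tafa2, Asic3 and Pvalb, had more Asic3 than any named subtype, with 549 and 531 CPM.

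The Trpm8 cold-like class divided by Hcn4 and Asic1 together. Its cluster led by Trpm8, Hpca and Hjurp had 345 CPM of Hcn4 in Penk KO and 311 CPM in Penk ctrl, and 435 and 383 CPM of Asic1. The other cluster had 161 and 170 CPM of Hcn4 and 232 and 265 CPM of Asic1. Piezo2 separated the Mrgpra3 pruriceptor-like clusters, with 84.5 CPM in Penk KO and 81.5 CPM in Penk ctrl in the Mrgprx1-led cluster and 27.8 and 26.7 CPM in the Mrgprb4-led one.

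**Figure D2:**
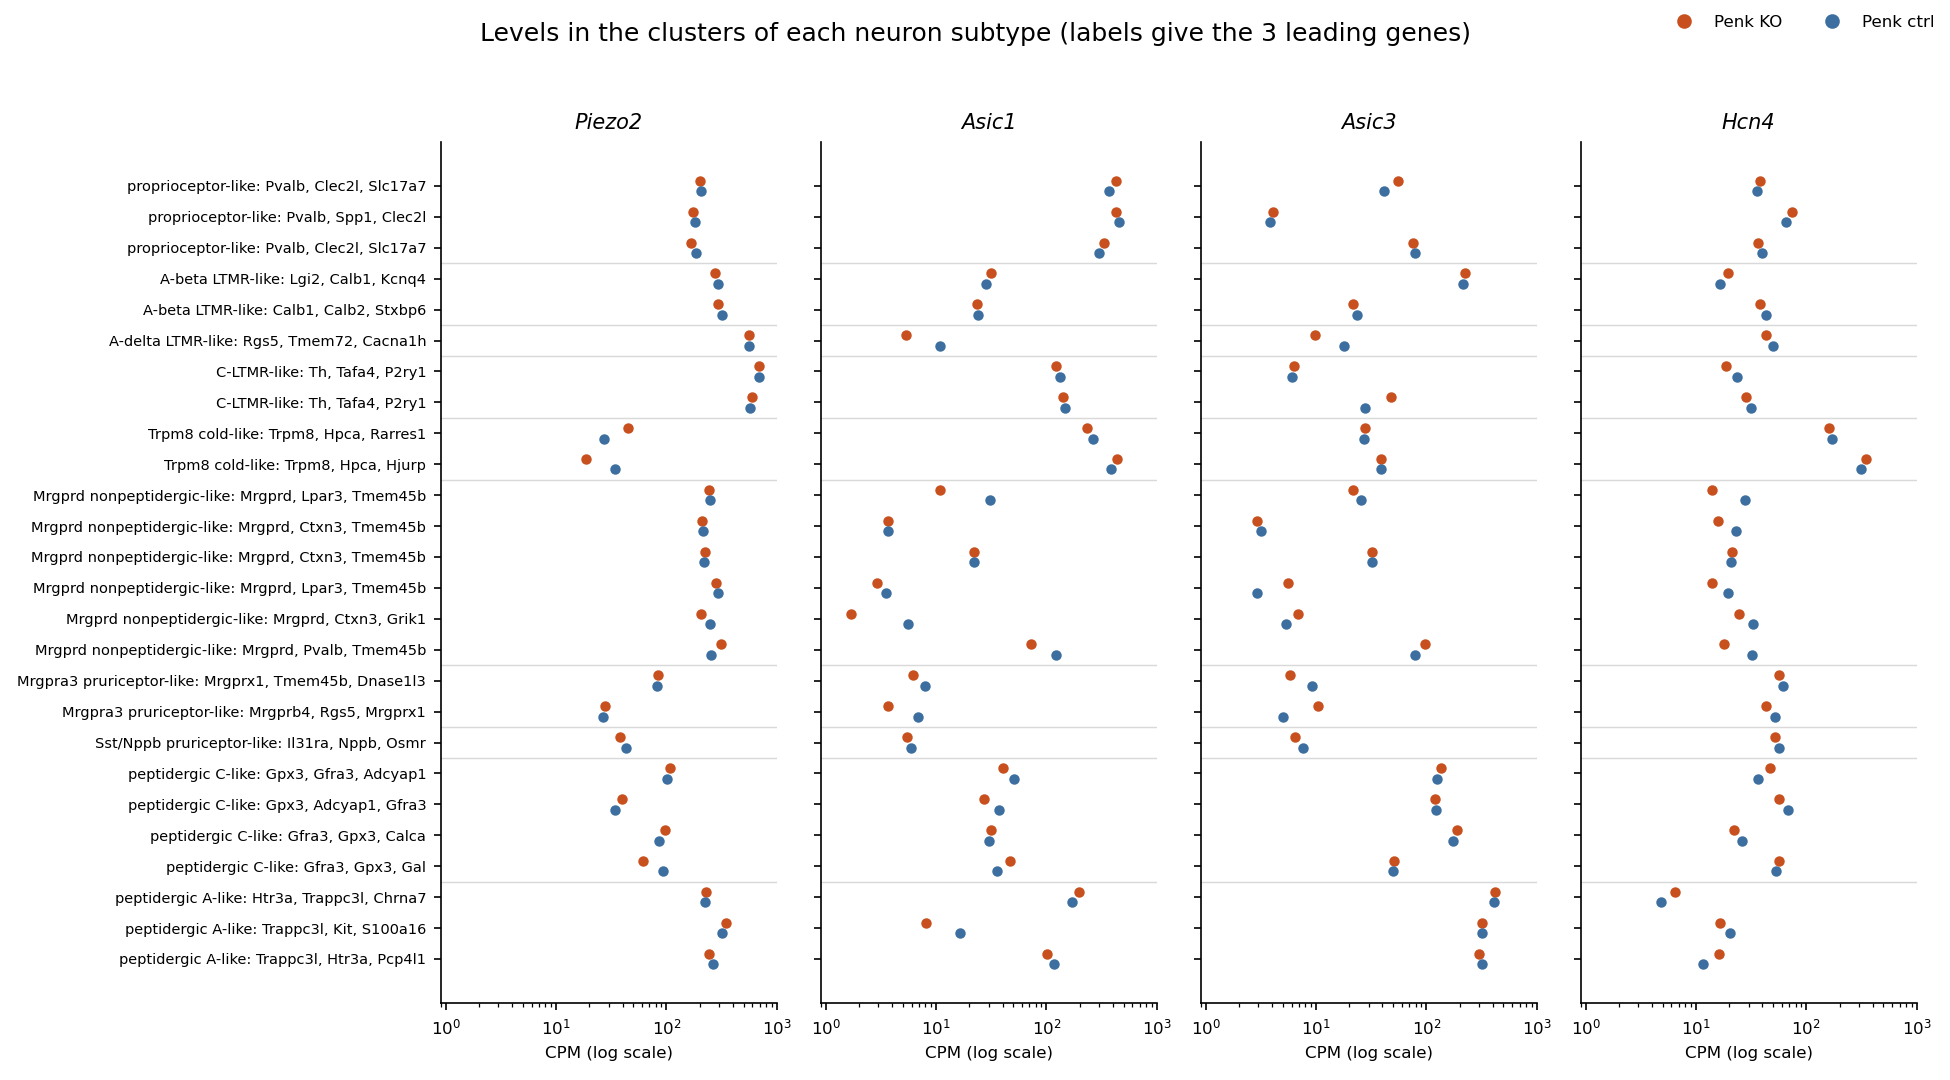
Levels (CPM, log scale) of channel genes in the clusters that make up a neuron subtype, with 1 point per library (Penk KO above Penk ctrl) and each cluster labelled by its 3 leading genes. Asic1 separates the peptidergic A-like clusters (199 CPM in Penk KO and 171 CPM in Penk ctrl against 8.08 and 16.6 CPM), and Asic3 separates the A-beta LTMR-like ones (226 and 217 CPM against 21.7 and 23.3 CPM).

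Outside the neurons, generic neuron markers such as Snap25 and Tubb3 were also read. Their level in the non-neuronal classes was what 31.2% to 71.1% of the UMIs of a class would give if they came from neurons. Against the level this share alone would give each gene, Piezo2 lay between 0.794-fold and 1.43-fold in the 7 classes and both libraries. Asic1, Asic2, Asic3, Hcn2 and Hcn3 lay between 0.567-fold and 1.60-fold. The 48 neuron subtype markers treated the same way had class medians between 0.795-fold and 1.32-fold. All 84 values of those 6 channel genes lay between the 10th and 90th percentiles of these markers in the same class and library, and no expression by glia or vessels is read from them.

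Piezo1 and Hcn4 were the exceptions. Piezo1 was 42.0-fold over the neuronal share in perineurial-like cells of the Penk KO library and 55.9-fold in those of the Penk ctrl library. In endothelial-like cells it was 16.9-fold and 24.0-fold over it, in fibroblast-like cells 17.5-fold and 21.1-fold, and in macrophage-like cells 17.5-fold and 20.3-fold. Satellite glia-like and myelinating Schwann-like cells were lower, between 3.37-fold and 7.15-fold. Hcn4 was 6.27-fold over the neuronal share in perineurial-like cells of the Penk KO library and 10.5-fold in those of the Penk ctrl library, and at most 1.43-fold in the other 6 classes. In mural-like cells, the pericytes and smooth muscle cells of vessels, Piezo1 had 1 UMI in each library, which allows no statement.

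**Figure D3:**
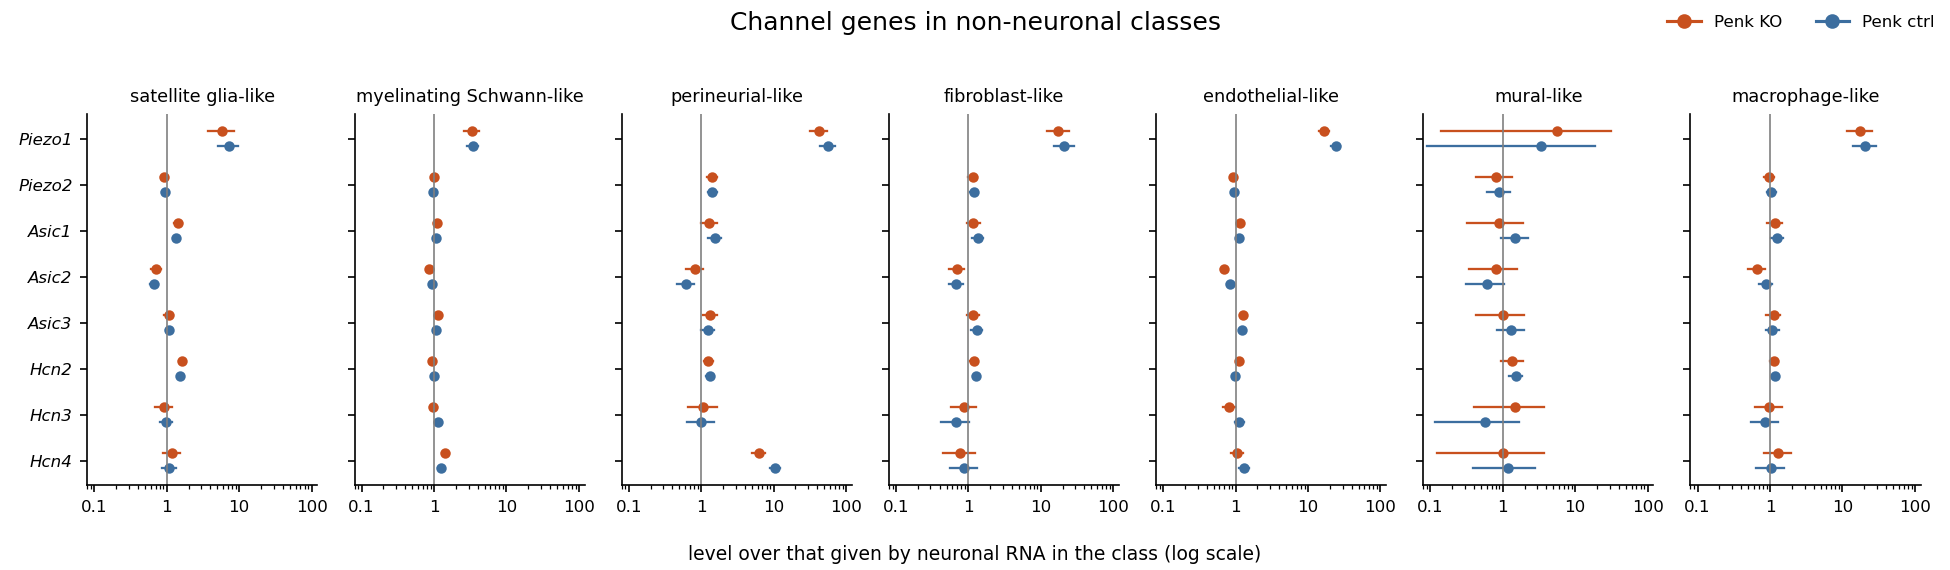
Level of each gene in the 7 non-neuronal classes divided by the level that neuronal RNA alone would give (log scale, 1 marks equality), with 1 point per library (Penk KO above Penk ctrl) and lines for the 95% counting interval. Piezo1 lies furthest above 1 in perineurial-like cells (42.0 and 55.9). Endothelial-like (16.9 and 24.0), fibroblast-like (17.5 and 21.1) and macrophage-like cells (17.5 and 20.3) follow. Satellite glia-like and myelinating Schwann-like cells lie above 1 at lower values. Hcn4 lies furthest above 1 in perineurial-like cells (6.27 and 10.5).

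Between the genotypes, the 8 genes were close over all neurons. Hcn2 had 370 CPM in Penk KO neurons and 426 CPM in Penk ctrl neurons, a ratio of 0.868 (95% counting interval 0.859 to 0.878). Asic1 had 104 CPM in Penk KO neurons and 113 CPM in Penk ctrl neurons, a ratio of 0.920. Asic3 had 122 and 131 CPM, a ratio of 0.936. These were the lowest 3 of the 8 ratios.

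Piezo1 had the highest ratio, 1.23 (1.07 to 1.42), from 351 UMIs (2.71 CPM) in Penk KO neurons and 476 UMIs (2.20 CPM) in Penk ctrl neurons. Piezo2 had 250 CPM in Penk KO neurons and 256 CPM in Penk ctrl neurons (0.975), Asic2 152 and 148 CPM (1.03), Hcn3 41.6 and 39.0 CPM (1.06) and Hcn4 3882 UMIs in Penk KO and 6725 UMIs in Penk ctrl neurons (0.964). None of the 8 was higher or lower by the size step, a ratio of at most 0.8 or at least its inverse in a gene with at least 100 UMIs over both libraries. Of all 13577 genes with that many UMIs in neurons, 2.58% were higher and 4.6% lower in the Penk KO library by that step. The median ratio of the 8 genes was 0.969, against 0.996 for all those genes.

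The makeup of the neurons differed between the libraries. Of the neuronal UMIs, proprioceptor-like neurons gave 11.0% in the Penk KO library and 12.9% in the Penk ctrl library, and peptidergic A-like neurons 16.2% and 19.7%. The A-beta LTMR-like class gave 6.53% and 7.46%. All other named subtypes gave a larger share in Penk KO. These included the peptidergic C-like (7.10% and 5.27%) and Mrgpra3 pruriceptor-like classes (6.52% and 4.80%). The Sst/Nppb pruriceptor-like class gave 3.69% in Penk KO and 2.67% in Penk ctrl. It held 134 of the 351 neuronal Piezo1 UMIs in Penk KO and 135 of the 476 in Penk ctrl. The peptidergic A-like cluster with Apoe among its leading genes gave 101 of the 602 cells of that class in Penk KO and 376 of the 998 cells in Penk ctrl. With each subtype weighted equally, the ratios were 1.03 for Asic1, 1.03 for Asic3 and 0.968 for Asic2, all 3 on the other side of 1 from the sums. The Hcn2 ratio was then 0.945 and the Piezo1 ratio 1.12. Equal weighting took in only the 10 named subtypes, so it also left out unnamed neurons (14.5% of neurons in Penk KO, 12.2% in Penk ctrl). The part of makeup in the ratios was not tested.

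**Figure D4:**
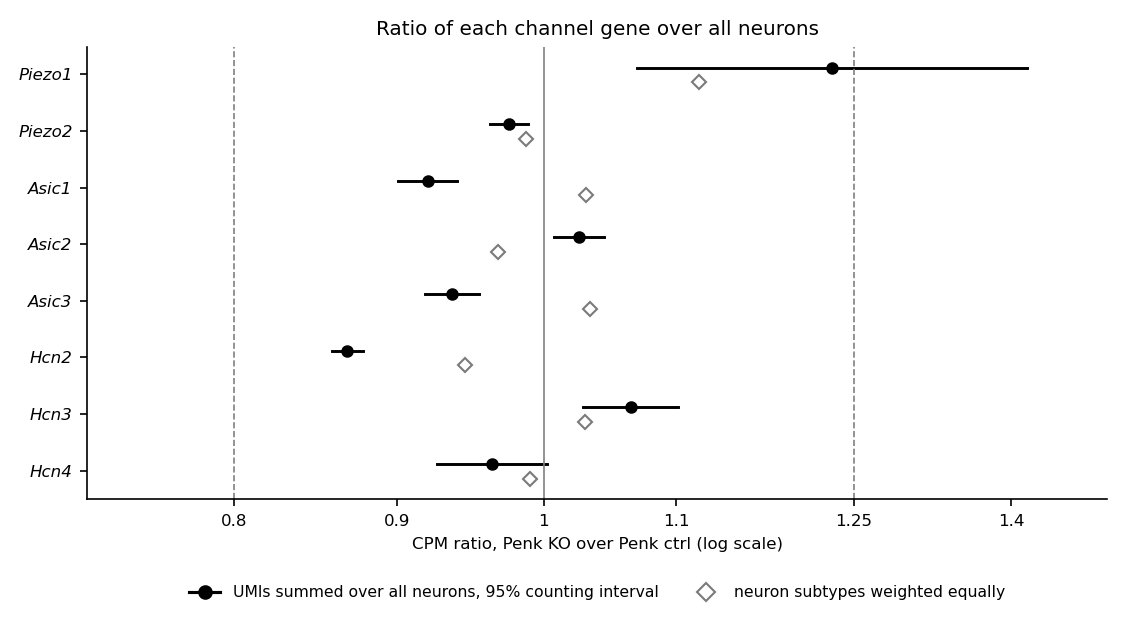
Ratio of CPM, Penk KO over Penk ctrl (log scale), of each gene over all neurons. Filled points give summed UMIs with the 95% counting interval. Open points give the 10 named neuron subtypes weighted equally, without the unnamed neurons. Dashed lines mark the size step of 0.8 and its inverse. Asic1, Asic2 and Asic3 change sides of 1 between both ways of summing, and none of the filled points passes the step.

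The Hcn2 ratio was below 1 in 10 of 10 neuron subtypes, from 0.795 in Mrgprd nonpeptidergic-like to 0.999 in A-delta LTMR-like neurons. It was below 1 in 9 of 10 when each class was scaled by the median ratio of its genes. It was also below 1 in 9 of 10 when the top cell of each library and class was left out. In the leading class of Hcn2, the proprioceptor-like neurons, its ratio was 0.960 (0.942 to 0.980). Trpm8 cold-like neurons had a ratio of 0.824 (0.752 to 0.903). Asic3 leaned the other way, with a ratio above 1 in 8 of the 9 subtypes in which it had enough UMIs, also after that scaling, and in 7 of 9 without the top cell of each library and class. Asic2 lay below 1 in 9 of 10 subtypes, in 7 of 10 after that scaling and in 9 of 10 without the top cells. The ratios of Piezo2 and Hcn4 fell on both sides of 1, with 4 of 10 subtypes above it each. Without the top cells, 2 of 10 were above it for Piezo2. The median log2 ratio of all genes in a subtype lay between −0.0257 (A-delta LTMR-like) and 0.00249 (Trpm8 cold-like). The share of all genes that lean as evenly over the subtypes was not worked out.

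Of 80 pairs of a gene and a neuron subtype, 71 had enough UMIs. In the Penk KO library 0 were higher and 9 lower by the size step, which is 12.7% of the 71. Among all 100420 pairs of a gene and a subtype, 2.81% were higher and 5.89% lower. The 29 pairs at 100 CPM or more had a median ratio of 0.993 and included 1 of the 9 pairs, while the 42 pairs below 100 CPM had a median of 0.970 and included 8. In each gene's highest neuron subtype, no pair passed the step. The pairs closest to the step on its upper side were Asic3 in Mrgpra3 pruriceptor-like neurons (ratio 1.245, from 73 UMIs in Penk KO and 72 UMIs in Penk ctrl) and Asic3 in Mrgprd nonpeptidergic-like neurons (ratio 1.23, from 566 and 727 UMIs). In the Mrgpra3 pruriceptor-like pair a single cell gave 42.5% of the Penk KO UMIs and 13.9% of the Penk ctrl UMIs, and without the top cell of each library 42 and 62 UMIs were left, a ratio of 0.844.

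Mrgprd nonpeptidergic-like neurons, the skin nociceptors marked by Mrgprd, held 3 of the 9 pairs. They were the largest subtype, with 1211 cells in the Penk KO library and 1510 in the Penk ctrl library. Among all 11526 genes with enough UMIs in that class, 4.83% were lower and 2.27% higher by the step. Hcn4 had 17.1 CPM (489 UMIs) there in the Penk KO library and 24.0 CPM (1082 UMIs) in the Penk ctrl library, a ratio of 0.714 (0.640 to 0.795). It was lower in Penk KO in 5 of the 6 clusters of the class, and was past the step in all 13 alternatives that kept the step and gave a value, between 0.565 and 0.742. Markers of the Trpm8 cold-like class, where Hcn4 is highest, summed to 54.8 CPM in Penk KO and 54.1 CPM in Penk ctrl here, a ratio of 1.01. That sum was mostly Cdh8 (45.5 and 44.3 CPM), while Trpm8 had 8.90 and 9.48 CPM. Proprioceptor-like neurons, whose markers in this class are given below, held 15.9% of Hcn4 UMIs in Penk KO and 16.8% in Penk ctrl. The part of either marker set in the Hcn4 result was not tested.

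Asic1 in the same neurons had 14.1 CPM (402 UMIs) in the Penk KO library and 20.7 CPM (933 UMIs) in the Penk ctrl library, a ratio of 0.680 (0.604 to 0.765). Hcn2 had 105 CPM in the Penk KO library and 132 CPM in the Penk ctrl library, a ratio of 0.795 (0.761 to 0.831). Both genes are highest in proprioceptor-like neurons, whose markers also differed in this class: Pvalb, Runx3, Whrn, Etv1 and Heg1, 5 of 5 lower and 0 at zero UMIs, summed to 96.9 CPM in the Penk KO library and 164 CPM in the Penk ctrl library, a ratio of 0.591. Their part in both results was not tested. Without the cluster of this class that had Pvalb among its leading genes, the ratios were 0.805 for Asic1 and 0.838 for Hcn2, inside the step, and 0.742 for Hcn4. Of the 14 alternatives that kept the step, Hcn2 was past it in 7 and inside it in the other 7, up to 0.937 with cells of high doublet score removed. Asic1 came to 1.12 when cells of high doublet score were removed and to 1.00 when the 8 genes could take part in the clustering.

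A-delta LTMR-like neurons held 2 pairs at low level. Among all 9729 genes with enough UMIs there, 9.17% were lower and 2.22% higher by the step. Asic1 had 5.33 CPM (33 UMIs) in the Penk KO library and 10.9 CPM (108 UMIs) in the Penk ctrl library, a ratio of 0.488 (0.320 to 0.726). A single cell gave 48.5% of these UMIs in the Penk KO library and 25.0% in the Penk ctrl library, 17 and 81 UMIs were left without those cells (ratio 0.335), and the ratio ran from 0.228 to 0.712 over the alternatives with enough UMIs. Asic3 had 9.69 CPM (60 UMIs) in Penk KO and 18.0 CPM (178 UMIs) in Penk ctrl, a ratio of 0.538 (0.394 to 0.724). A single cell gave 28.3% of those Asic3 UMIs in the Penk KO library and 38.8% in the Penk ctrl library, and the ratio was 1.11 with cells of high doublet score removed. The 5 markers of peptidergic A-like neurons, where Asic3 is highest, summed to 33.6 CPM in Penk KO and 48.6 CPM in Penk ctrl in this class (0.691, 5 of 5 lower, 1 of them at zero UMIs in a library), and those of proprioceptor-like neurons, where Asic1 is highest, to 66.7 and 73.7 CPM (0.905, 4 of 5 lower). Their part in these results was not tested.

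The remaining 4 pairs were spread over 4 subtypes. In those subtypes, 3.59% (A-beta LTMR-like) to 7.15% (Mrgpra3 pruriceptor-like) of all genes with enough UMIs were lower by the step. Hcn3 in A-beta LTMR-like neurons had 10.5 CPM in the Penk KO library and 14.2 CPM in the Penk ctrl library, a ratio of 0.744 (0.576 to 0.955). Hcn4 in C-LTMR-like neurons had 18.8 and 23.7 CPM, a ratio of 0.794 (0.643 to 0.978), which was inside the step with cells of high doublet score removed (0.847) and with median of ratios scaling (0.8001). Asic2 in Trpm8 cold-like neurons had 46.4 and 64.2 CPM, a ratio of 0.723 (0.553 to 0.940), inside the step at Leiden resolution 0.5 (0.822). Asic1 in Mrgpra3 pruriceptor-like neurons had 4.62 CPM in Penk KO and 7.33 CPM in Penk ctrl, a ratio of 0.630 (0.417 to 0.939), and proprioceptor markers were lower in 4 of 5 there. Their sum, 602 CPM in Penk KO and 608 CPM in Penk ctrl, was mostly Etv1 (579 and 568 CPM), while Pvalb had 8.29 and 19.3 CPM and Whrn 8.53 and 13.7 CPM. Their part in the result was not tested. In the other 3 pairs, the summed markers of the class where the gene was highest were not lower, though single markers were. C-LTMR markers in A-beta LTMR-like neurons had a ratio of 1.06 (2 of 5 lower). Trpm8 cold markers in C-LTMR-like neurons had 1.05 (1 of 3 lower). A-delta LTMR markers in Trpm8 cold-like neurons had 1.07 (1 of 4 lower). That last sum was mostly Necab2 (393 CPM in Penk KO, 363 CPM in Penk ctrl), while Colq had 2.67 and 6.13 CPM. The part of these markers in the 3 results was not tested. None of these 4 pairs lay in a class where the gene was high.

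Piezo1 and Piezo2 held none of the 9 pairs. In Sst/Nppb pruriceptor-like neurons the Piezo1 ratio was 1.20 with an interval of 0.939 to 1.54. Piezo2 had ratios of 1.00 (0.966 to 1.04) in C-LTMR-like and 1.01 (0.964 to 1.05) in A-delta LTMR-like neurons, and its lowest was 0.815 (0.563 to 1.17) in Trpm8 cold-like neurons, from 49 UMIs in Penk KO and 89 UMIs in Penk ctrl. A-beta LTMR-like neurons had a Piezo2 ratio of 0.938 (0.892 to 0.985).

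**Figure D5:**
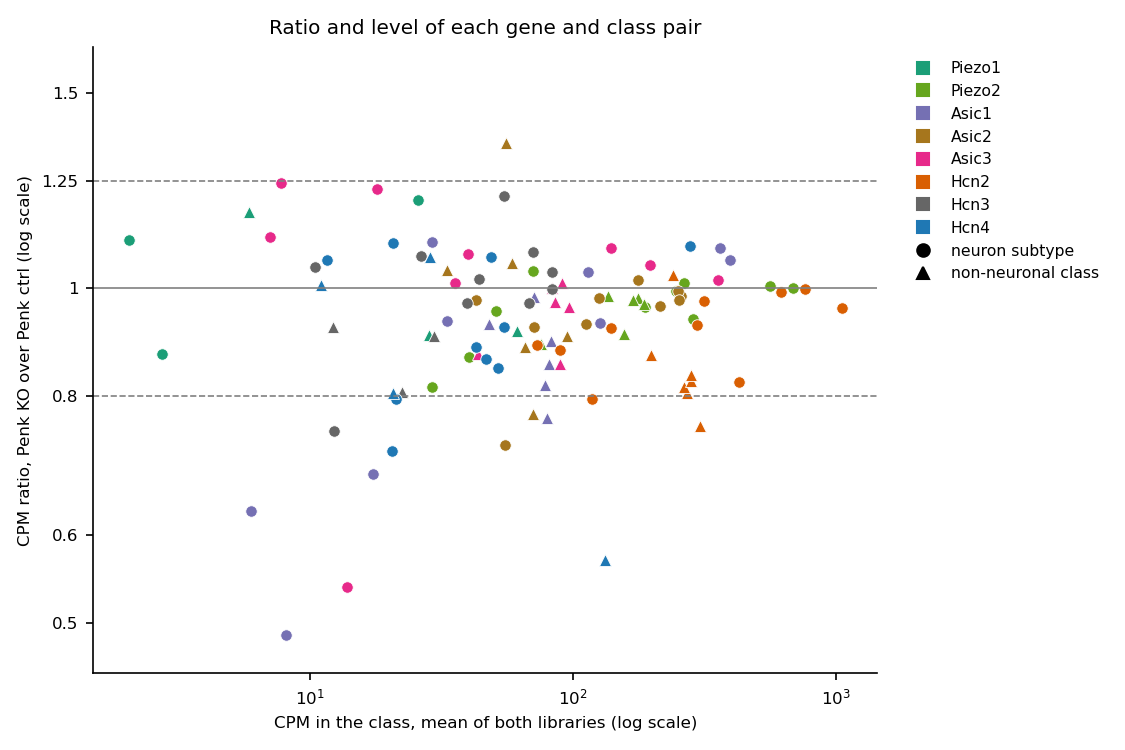
Ratio of CPM, Penk KO over Penk ctrl (log scale), against mean level (CPM, log scale) for each pair of a gene and a class with at least 100 UMIs over both libraries, with dashed lines at the size step. Of the 9 neuron subtype pairs below the step, 8 lie under 100 CPM, and the lowest is Asic1 in A-delta LTMR-like neurons at 0.488.

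Of 56 pairs of a gene and a non-neuronal class, 41 had enough UMIs, and 1 was higher and 4 were lower in the Penk KO library by the step. Among all 51323 such pairs, 5.35% were higher and 5.45% lower. Perineurial-like cells held 3 of the 5. Among all 5373 genes with enough UMIs in that class, 8.95% were higher and 8.49% lower. Hcn4 had 96.3 CPM (89 UMIs) there in the Penk KO library and 169 CPM (183 UMIs) in the Penk ctrl library, a ratio of 0.569 (0.437 to 0.737). It was past the step in all 10 alternatives that kept the step and gave a value, between 0.422 and 0.770.

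Hcn4 was present in 9.90% of perineurial-like cells of the Penk KO library and 13.9% of those of the Penk ctrl library, against 3.45% and 3.69% of satellite glia-like cells, at median depths of 888 and 926 UMIs in perineurial-like cells and 1052 and 1060 UMIs in satellite glia-like cells. With cells thinned to 500 UMIs, the perineurial-like shares were 6.21% in the Penk KO library and 8.42% in the Penk ctrl library. Proprioceptor markers were also lower in perineurial-like cells, with 462 CPM in the Penk KO library and 726 CPM in the Penk ctrl library (0.637, 4 of 5 lower), and the Trpm8 cold markers had 110 and 136 CPM (0.812, 2 of 3 lower). Their part in the result was not tested. The neuronal share of the UMIs was 51.2% in perineurial-like cells of the Penk KO library and 51.8% in those of the Penk ctrl library.

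The other non-neuronal pairs rested on few UMIs. Asic2 in perineurial-like cells had 63.9 CPM (59 UMIs) in Penk KO and 47.2 CPM (51 UMIs) in Penk ctrl, a ratio of 1.35 (0.914 to 2.01), and Asic1 in those cells had 69.3 and 90.7 CPM, a ratio of 0.764 (0.549 to 1.06), inside the step with cells of high doublet score removed (0.876). Hcn2 in mural-like cells had 261 and 347 CPM, a ratio of 0.752 (0.488 to 1.14), and Asic2 in macrophage-like cells had 61.4 and 79.6 CPM, a ratio of 0.771 (0.546 to 1.08). All 4 intervals included 1, and all 4 levels lay within the spread of neuronal markers given above. Piezo1 ratios were 0.915 (0.629 to 1.33) in perineurial-like and 0.908 (0.737 to 1.12) in endothelial-like cells.

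Lists of partners of these channels and of other genes of touch, stretch, acid sensing and cyclic AMP synthesis were set beside them over all neurons. Of 20 genes linked to touch and stretch sensing, 19 were in the matrices and 16 had enough UMIs. Of the 16, none was higher and 1 was lower by the step, against 2.58% higher and 4.6% lower of all genes. Their median ratio was 0.982 against 0.996 for all genes. The lower gene was Mdfic, whose product binds Piezo channels, with 2.58 CPM in Penk KO and 3.31 CPM in Penk ctrl neurons (0.781), and its ratio with subtypes weighted equally was 0.903, inside the step. Mtmr2, a phosphoinositide phosphatase gene, had a ratio of 0.835, and 0.759 with equal weights. At the other end stood Tmem63a, an osmotically gated channel gene (27.8 and 23.8 CPM, 1.17), and Stom, a membrane scaffold gene of the stomatin family (31.6 and 29.3 CPM, 1.08), with 1.05 and 0.901 at equal weights. Mdfic and Tmem63a had their highest level in perineurial-like cells and Mtmr2 in endothelial-like cells, and the part of RNA from those cells in the neuron ratios was not tested.

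Of 18 genes of acid sensing or linked to ASIC channels, 13 had enough UMIs. Of the 13, 2 were higher and none lower by the step (median ratio 1.03), against 2.58% higher and 4.6% lower of all genes. Trpv1, the capsaicin, heat and acid receptor gene, had 89.4 CPM in Penk KO neurons and 68.9 CPM in Penk ctrl neurons (1.30), and Gpr65, a proton-sensing receptor gene, 1.18 and 0.907 CPM (1.30). With subtypes weighted equally their ratios were 1.04 and 1.14, inside the step. Gpr65 was highest in macrophage-like cells. Otop1, a proton channel gene (0.857), and Scnn1a, an epithelial sodium channel subunit gene (0.860), had the lowest ratios of that list.

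Of 14 genes of HCN partners and cyclic AMP synthesis, 12 had enough UMIs. Of the 12, none was higher and 1 was lower by the step (median ratio 0.948), against 2.58% higher and 4.6% lower of all genes. The lower gene was Irag1 (listed as Mrvi1), with 6.35 CPM in Penk KO neurons and 8.53 CPM in Penk ctrl neurons (0.745), and its ratio with subtypes weighted equally was 0.766. Irag1 and Flna were highest in mural-like cells. Flna, the actin cross-linker filamin A gene, had 19.2 and 23.9 CPM (0.805). Nedd4l, a ubiquitin ligase gene, had 484 CPM in Penk KO and 410 CPM in Penk ctrl neurons (1.18), and Adcy5, an adenylyl cyclase gene, 46.4 and 42.8 CPM (1.09, and 0.992 at equal weights).

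The genes whose levels over the 17 classes were most like those of each channel gene were found by Pearson correlation of log2(CPM + 1) among 12376 genes, with classes of the same libraries as points and with no test. For Piezo1 they were Emp1 (0.946), F11r (0.892) and Ang (0.892), and for Piezo2 Ankrd27 (0.913), Kcnab1 (0.904) and Hcrtr2 (0.852). For the ASIC genes they were Cux2 (0.931), Nyap2 (0.916) and Igdcc4 (0.889) with Asic1, Ap1ar (0.956), Uhrf1bp1l (0.954) and Dock11 (0.941) with Asic2, and Syndig1l (0.948), Chrm2 (0.930) and Creg2 (0.919) with Asic3. For the HCN genes they were Ptcd3 (0.962), Fam189a1 (0.957) and Miga2 (0.953) with Hcn2, and Syt1 (0.943), Avl9 (0.915) and Galnt17 (0.906) with Hcn3. Hcn4 had the weakest likeness of the 8, with Rec114 (0.752), Dnah6 (0.749) and Tasp1 (0.748). Among the 8 genes themselves, Asic2 and Hcn3 were the most alike pair (0.794). All these correlations took in the non-neuronal classes. There, channel genes other than Piezo1 and Hcn4 lay within the spread of neuron subtype markers given above. Those points are therefore no separate measure of expression by the non-neuronal classes.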

How the data were processed

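Dissociated fixed cells were profiled with the 10x Chromium fixed RNA kit, in which probe pairs read each gene, per the labels' protocols. The authors deposited raw, unscaled UMI counts, 1 matrix for each library, produced by Cell Ranger on GRCm39. The labels' protocols name Cell Ranger 7.0 and the matrix headers 8.0.1, and the submitters' processing notes also name Seurat, with no role given. The series text speaks of nuclei and the labels of cells. The count matrices hold called cells only.

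The 8 genes and the gene lists were chosen with earlier results of these data known. The cell filter (500 UMIs or more and 300 genes or more) removed 14 barcodes in the Penk KO and 20 in the Penk ctrl library. Cells of the 2 libraries went into 1 clustering with no batch integration. It used scanpy 1.11.5 and igraph 0.11.9, beside scikit-learn 1.9.0, pandas 2.3.3, scipy 1.17.1, numpy 2.4.6, matplotlib 3.10.9 and Python 3.11.15. After scaling each cell to 10000 counts and taking logs, 3000 variable genes without the 8 gave 40 components, 15 neighbours and Leiden clusters at resolution 1.0. Neurons were clustered again alone in the same way. Names came from marker lists, and needed 50 cells or more, a score of 1.0 or more (mean log2 fold of the markers over the median cluster, 5 CPM added), a lead of 0.35 or 2 more own markers among the leading genes, and 3 markers raised. These limits were chosen with the clusters in view, and 8.21% of Penk KO and 8.07% of Penk ctrl cells stayed unnamed. No doublets were removed. As an alternative, 1789 Penk KO and 3473 Penk ctrl cells of the highest Scrublet scores were, the number following from droplets shared by both libraries.

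UMIs were summed per library and class. CPM have exact Poisson 95% intervals, ratios exact conditional binomial ones and shares of cells Clopper-Pearson ones. With 1 library per group no test was run and no replicate error exists. A size step of 1.25 or 0.8 at 100 UMIs or more stands in for a call. Thinning drew 500 UMIs per cell, or 3000 per neuron. The neuronal share of a non-neuronal class is its level of generic neuron markers divided by that of neurons. Besides the 8 genes, those named are Penk, class markers, the 3 genes most like each channel gene (at least 10 CPM in a class), and the 2 highest and 2 lowest ratios of each list. Cluster names use leading genes. The ratio and interval steps were tested on simulated data. There, 13.2% of genes simulated without a change passed the step in perineurial-like cells, 2.04% in Mrgprd nonpeptidergic-like neurons and 1.35% over all neurons. Alternatives changed the cell filter, thinning, weighting, droplets, doublets, clustering, scaling, 1 top cell, step and UMI minimum. Sequences were not used here.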

Additional observations from a re-analysis of the deposited data

Results flagged for a closer look

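Asic2 was past the size step in opposite directions in different classes. The ratio of Penk KO over Penk ctrl was 1.35 in perineurial-like cells, against 0.723 in Trpm8 cold-like neurons and 0.771 in macrophage-like cells. With 1 library per group, the difference between these ratios was not tested. The perineurial-like ratio rested on 59 UMIs in Penk KO and 51 UMIs in Penk ctrl and the macrophage-like ratio on 59 and 90 UMIs, and both counting intervals included 1.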

How the results depend on the processing

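No paired analysis was possible because each group was 1 library and the labels give no replicate numbers, and for the same reason no replicate could be left out. The count of neuron subtype pairs past the size step, 9 as reported, was 5 with cells of high doublet score removed (2 higher, 3 lower), 3 with a step of 1.5 and 5 with at least 300 UMIs. The count of non-neuronal pairs, 5 as reported, was 8 in droplets with a cell of 1 library, 9 at Leiden resolution 0.5, 9 with the 8 genes allowed among the variable genes, 8 without the top cell of each gene, 1 with a step of 1.5 and 0 with at least 300 UMIs. Over all neurons, 0 genes passed the step as reported and 1, Piezo1, in droplets with a cell of 1 library. The number of genes with a neuron ratio above 1, 3 as reported, was 1 with neurons thinned to 3000 UMIs. Asic3 in A-delta LTMR-like neurons turned to 1.11 and Asic1 in Mrgprd nonpeptidergic-like neurons to 1.12 with high doublet scores removed, and the Asic1 pair to 1.00 with the 8 genes among the variable genes. The cause of these changes was not tested.

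The highest class of Piezo1, Piezo2, Asic1, Asic3, Hcn2 and Hcn4 was the same under all alternatives run. Of 96 neuron ratios of single genes under alternatives, 72 stayed within the counting interval and 24 did not. Of 96 levels in the highest class, 82 did and 14 did not. Leaving out neuron clusters led by glial genes, leaving out the Pvalb cluster of the Mrgprd class and taking off neuronal RNA were chosen after seeing the data. Depth limits Piezo1 most, and pairs under 100 UMIs over both libraries have no ratio here.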

Other observations

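The highest Piezo1 level of any cluster lay in 1 that stayed unnamed, led by the matrix genes Fn1, Col1a1 and Col3a1. It held 28 cells of the Penk KO library and 1 cell of the Penk ctrl library. Piezo1 had 46 UMIs (350 CPM) in those 28 cells, and 1 UMI in the single Penk ctrl cell, so the levels cannot be compared between the libraries. The Penk KO cells had a median of 3370 UMIs.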
